A study of Homo sapiens with 4 samples.

Results

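Small nucleolar RNAs and small Cajal body RNAs were examined in Huh7, an established human hepatocellular carcinoma line, after sorting by flow cytometry. The genes were all those whose platform symbol begins with SNORD, SNORA or SCARNA and that have a probe carrying exactly 1 gene symbol, host genes left out. They numbered 192 of 18377 genes with such a probe, made up of 115 SNORD, 61 SNORA and 16 SCARNA genes. One sort gave CD133-positive and CD133-negative cells, CD133 being the surface protein encoded by PROM1. The other gave cells positive and negative for aldehyde dehydrogenase (ALDH). Each of the 4 fractions was measured on 1 array, and the series sets the marker-positive cells against the others as cancer stem cells against non-stem cells. No treatment, time or genotype differs between the fractions, and whether the 4 RNAs came from separate cultures is not given in the sources used here.

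Small nucleolar RNAs (snoRNAs) guide the chemical modification of other RNAs by base pairing. C/D box RNAs, the SNORD genes, direct 2'-O-methylation with the methyltransferase fibrillarin, and H/ACA box RNAs, the SNORA genes, direct pseudouridylation with dyskerin. Their main targets are ribosomal RNAs, whereas small Cajal body RNAs (scaRNAs) act on the spliceosomal small nuclear RNAs. In human cells most lie in introns of host genes, many of which encode ribosomal proteins or serve as spliced non-coding carriers, and are cut out of the host's intron after splicing.

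By RefSeq positions in assembly GRCh38.p14, read without strand, 190 of the 192 lay inside another gene, and they shared 107 hosts. SNORD13 and SNORD32B lay in none. A total of 10 hosts held 3 or more measured genes, 75 genes in all. Many hosts are known for a transcript that starts with C and a run of pyrimidines (a 5' terminal oligopyrimidine start), so the start regions of 6 non-coding hosts of genes described below are shown. Each runs from 50 bases before to 50 bases from the annotated start, 5' to 3', with CTTTT or CTTTC in capitals where one lay within the first 10 transcribed bases.
SNHG5: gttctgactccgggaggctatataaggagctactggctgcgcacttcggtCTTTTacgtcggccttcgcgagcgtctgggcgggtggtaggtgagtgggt
SNHG19: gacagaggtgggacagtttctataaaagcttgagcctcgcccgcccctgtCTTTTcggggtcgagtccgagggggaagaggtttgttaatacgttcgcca
SNHG32: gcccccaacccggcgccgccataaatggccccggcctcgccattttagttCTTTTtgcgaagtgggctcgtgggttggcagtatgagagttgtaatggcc
ZFAS1: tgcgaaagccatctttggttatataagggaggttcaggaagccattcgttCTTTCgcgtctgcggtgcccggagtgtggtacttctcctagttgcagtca
GAS5: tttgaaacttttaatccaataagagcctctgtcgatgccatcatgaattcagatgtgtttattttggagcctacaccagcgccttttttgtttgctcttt
SNHG29: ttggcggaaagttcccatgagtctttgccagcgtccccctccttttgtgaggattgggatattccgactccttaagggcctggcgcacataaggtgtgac
These sequences are from RefSeq, build GRCh38.p14. SNHG5, host of SNORD50A and SNORD50B, is at chr6:85678684-85678783 on the minus strand. SNHG19, host of SNORD60, is at chr16:2155309-2155408 on the minus strand. SNHG32, host of SNORD52, is at chr6:31834866-31834965 on the plus strand. ZFAS1, host of SNORD12C, is at chr20:49278592-49278691 on the plus strand. GAS5, host of 7 measured SNORD genes, is at chr1:173868996-173869095 on the minus strand, and SNHG29, host of SNORD49A, at chr17:16438937-16439036 on the plus strand. In SNHG5, SNHG19, SNHG32 and ZFAS1 the motif began at the first transcribed base. For ZFAS1 the start used did not coincide with the gene's own 5' end in RefSeq. A single annotated start was read for each of these hosts. Absence of the letters in GAS5 and SNHG29 therefore holds for that start only and does not show that the host lacks such a transcript.

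Over all hosts, RefSeq start windows were at hand for 87 of 107 genes, 109 windows in all because some genes have several. CTTTT or CTTTC, which differ only in their last letter, lay within the first 10 bases of the transcribed strand in 22 of these windows (20.2%), against 992 of 35116 windows of all genes (2.82%). Among hosts encoding ribosomal proteins the count was 8 of 12, among non-coding hosts 6 of 19, among other protein-coding hosts 8 of 76 and among the hosts of the SNORD113 to SNORD116 families 0 of 2. On the opposite strand the letters were found in 0 of the 109 host windows and in 1.53% of all windows. A match describes these letters only.

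The deposited values are log2 expression values after robust multi-array averaging (RMA). Correlations between arrays over all probes lay between 0.982 and 0.989. The liver genes ALB and AFP stood at log2 levels of 10.9 to 11.7 and of 11.6 to 11.9, while the defining leukocyte gene PTPRC stayed at or under 2.64, below the median of all values (4.98). CD14, another gene of the leukocyte list, stood above that median on all 4 arrays (5.63 to 6.23) and differed by -0.29 and 0.42. Of the other liver genes APOA1 differed by -0.78 and 0.25, and TTR by 0.995 and -0.58. The summed log2 levels of the marker lists ranged over the 4 arrays from 51.2 to 51.7 for hepatocytes (5 of 6 genes measured), 12.2 to 13.01 for leukocytes (3 of 4), 12.7 to 14.8 for endothelium (3 of 3) and 14.1 to 14.8 for fibroblasts (3 of 3). In the ALDH sort the endothelial genes PECAM1, CDH5 and VWF differed by -0.93, -0.67 and 0.39. The part of these marker genes in the results was not tested. PROM1 was 3.68 log2 units higher in CD133-positive cells and 2.42-fold lower in ALDH-positive cells (7.11 against 8.39), so the positive fractions of the sorts differ in this marker. ALDH1A1, which encodes a main ALDH enzyme, differed by 0.04 between ALDH-positive and ALDH-negative cells, so these 2 transcripts check the labels of the CD133 sort only. Other ALDH genes are not described here. With 1 array per fraction, differences within a sort have no replicate check, and the number of arrays limits their precision. Every difference below is a log2 value of the positive minus the negative fraction, and levels of different probes are not compared. Where 4 levels are listed, they follow the order CD133+, CD133-, ALDH+, ALDH-, and where 2 differences are listed, the CD133 sort comes first. A probe for an intronic RNA cannot tell the mature RNA from unspliced host RNA.

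Across both sorts the snoRNA and scaRNA genes lay mostly lower in the marker-positive cells, by small amounts. In the CD133 sort 144 of 192 (75%) were lower in CD133-positive cells, where 50.9% of all genes were, and the median difference was -0.15 against -0.01 for all genes. In the ALDH sort 126 of 192 (65.6%) were lower in ALDH-positive cells, where 46.1% of all genes were, with a median of -0.16 against 0.03. A difference below 0 in both sorts was found for 104 genes (54.2%), beside 25.3% of all genes, and a difference above 0 in both for 26, beside 28.2% of all genes. Above 0 lay 48 genes in the CD133 sort, beside 49% of all genes, and 66 in the ALDH sort, beside 53.8% of all genes. The CD133-negative array held the highest value of the 4 for 88 of the 192 genes (45.8%), against 28.1% of all genes, and the CD133-positive array the highest for 18 (9.38%), against 16.95% of all genes. The ALDH-positive array held the lowest value for 79 genes (41.1%), against 25.5% of all genes.

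Large differences were few. At 1.5-fold, 12 genes (6.25%) were lower in CD133-positive cells, beside 2.01% of all genes, and 4 were higher, beside 3.18%. In the ALDH sort 20 (10.4%) were lower at 1.5-fold, beside 5.26% of all genes, and 4 were higher, beside 5.4%. At 2-fold the counts were 0 lower and 0 higher in the CD133 sort, and 5 lower and 0 higher in the ALDH sort. Of all genes, 0.163% and 0.62% were 2-fold lower and higher in the CD133 sort, and 0.969% and 0.43% in the ALDH sort. The 5 were SNORD77, SNORA62, SNORD20, SNORD58A and SNORD49A. Of the 12 and 20 genes, 5 were 1.5-fold lower in both sorts, beside 0.18% of all genes. These were SNORD20, SNORD58A, SCARNA9L, SNORA5A and SNORA2B, the last named after its values were seen. Without the dim families SNORD113 to SNORD116, the genes higher at 1.5-fold numbered 1 and 2 in the CD133 and ALDH sorts.

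Many of the 192 genes were dim. Only 94 had a mean over the 4 arrays at or above the median of all values, and their 1.5-fold counts were 5 lower and 0 higher in the CD133 sort, and 10 lower and 1 higher in the ALDH sort. Of all 11225 genes in that range, 1.59% were lower and 2.405% higher in the CD133 sort, and 6.10% and 3.21% in the ALDH sort. In the same range all genes had medians of -0.04 and -0.02 in the CD133 and ALDH sorts, and the 94 genes had -0.20 and -0.21. Below that level a small difference cannot be told from background.

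The only contrast with more than 1 array per side sets both positive fractions against both negative fractions. It was fitted with limma over all genes, with the sort as a block. It leaves 1 residual degree of freedom, so it describes what the sorts share and tests neither. The positive fractions are different cells and not replicates, and the residual is how far the sorts disagree. At an adjusted p under 0.05 (Benjamini-Hochberg), limma called 0 of the 192 genes and 0 of 18377, a background of 0%. The smallest limma adjusted p among the 192 was 0.70. At an unadjusted limma p under 0.05 there were 33 of the 192 (17.2%), beside 6.34% of all genes. Of the 33, 29 were lower in the positive fractions, and of the 1165 such genes among all genes 494 were (2.69% of all 18377). SNORA80B, SNORD105, SNORD116-15 and SNORD116-6 were the 4 higher ones, with SNORD105 and SNORD116-6 named after their values were seen.

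**Figure D1:**
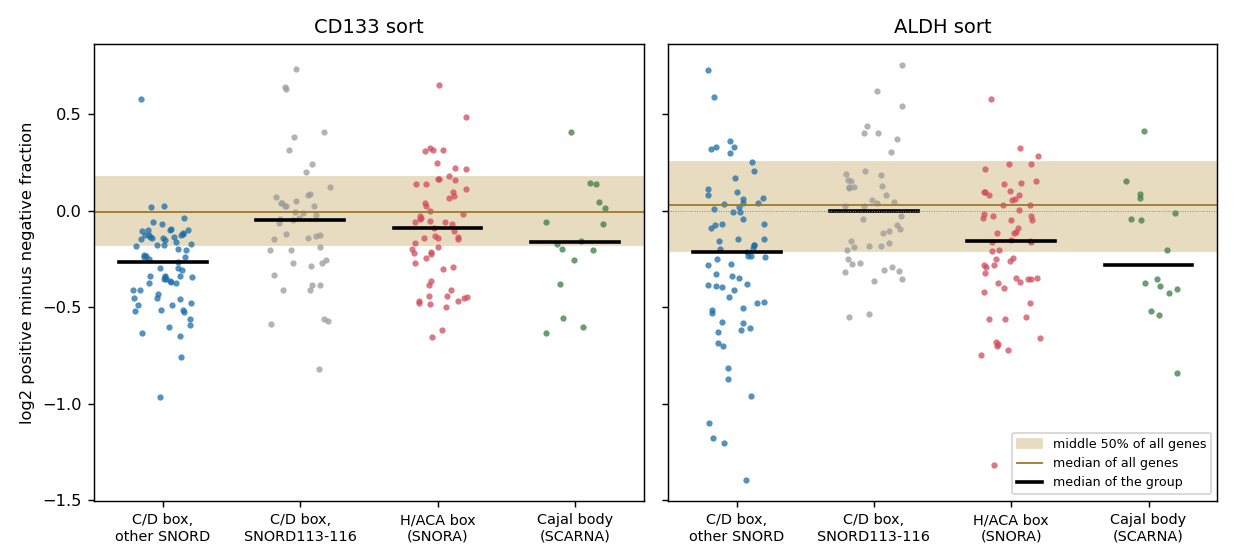
Each point is 1 gene, with its log2 difference between positive and negative fraction on the vertical axis and its class on the horizontal axis, for the CD133 sort (left) and the ALDH sort (right). Black bars are class medians, the band holds the middle 50% of all genes and the thin line their median; the SNORD genes outside the SNORD113 to SNORD116 families have the lowest class median in the CD133 sort (-0.27), and the SCARNA genes in the ALDH sort (-0.28).

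The classes were then set side by side, as medians with no test, since genes of a class are not replicates. The 115 C/D box genes had medians of -0.19 and -0.15. They split into 46 copies of the SNORD113 to SNORD116 families and 69 others. The 69 include 3 pseudogene copies of SNORD13 (SNORD13P1, SNORD13P2 and SNORD13P3). Of the 69 others, 66 and 49 were lower in the positive cells, with medians of -0.27 and -0.21, and 48 were lower in both sorts against 2 higher in both. The 61 H/ACA box genes had medians of -0.09 and -0.15, with 39 and 42 lower, and 30 lower in both. The 16 Cajal body genes had medians of -0.16 and -0.28, with 11 and 12 lower, and 10 lower in both. In the CD133 sort the H/ACA genes spread over both signs, with the middle 50% between -0.29 and 0.11, whereas the middle 50% of the 69 C/D genes ran from -0.43 to -0.14. The H/ACA medians varied with the level filter. Over the 36 H/ACA genes whose mean reached the median of all values they were -0.15 and -0.18. Over the few whose mean reached the 75th percentile they were -0.32 and -0.03. Those few include SNORA71A, SNORA71C and SNORA71D, all on chromosome 20, at -0.45, -0.47 and -0.45 in the CD133 sort, named after their values were seen. A dependence on brightness was not tested.

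Among the C/D box genes SNORD20, which lies inside the nucleolin gene NCL, was lowest over both sorts. Its log2 levels were 3.62, 4.58, 3.09 and 4.29. It was therefore 1.95-fold and 2.30-fold lower in the positive fractions, though all 4 values lay below the median of all values. Over both sorts its limma estimate was -1.08 ± 0.19 (SE, 2 positive against 2 negative arrays), with an adjusted p of 0.70.

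SNORD58A, inside the ribosomal protein gene RPL17, stood above the median of all values in its mean. Its levels were 5.21 and 5.84 in the CD133 sort, positive cells first, and 4.45 and 5.62 in the ALDH sort. That is 1.55-fold and 2.26-fold lower in the positive fractions, with ALDH-positive cells lowest of the 4. RPL17 itself differed by 0.25 and -0.20.

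SNORD49A, in the non-coding host SNHG29, showed the same order within each sort. Its levels were 5.71 and 6.23 in the CD133 sort and 4.63 and 5.73 in the ALDH sort. The differences were -0.52 and -1.10, while SNHG29 differed by -0.04 and -0.58. SNORD52, whose host SNHG32 is shown above, was lower in CD133-positive cells (5.21 against 5.81) and almost level between the ALDH fractions (4.78 and 4.85). SNORD104 was 1.51-fold lower in CD133-positive cells (7.32 against 7.91) but slightly higher in ALDH-positive cells (7.88 against 7.62), so the sorts gave opposite signs for it. The first of these values falls short of 1.5-fold after loess (-0.53).

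The genes of the remaining hosts shown above were named for their hosts, with values already seen. SNORD60, in SNHG19, had levels of 6.04, 6.50, 5.78 and 6.37 and differed by -0.46 and -0.58. SNORD50A and SNORD50B, in SNHG5, differed by -0.18 and 0.02 and by -0.10 and -0.41. SNORD12C, in ZFAS1, stood at 6.66 and 6.80 on the CD133-sort arrays and at 5.49 and 5.93 on the ALDH-sort arrays, a larger gap between the sorts (2.02-fold) than within them. All these genes but SNORD50A were lower in the positive cells of both sorts.

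SNORD13 (U13), a C/D box RNA transcribed from its own gene that takes part in acetylation of the small-subunit ribosomal RNA, had levels of 8.55, 8.99, 8.67 and 8.50. It differed by -0.43 and 0.17. The U14 copies SNORD14C and SNORD14E, which act in processing of the small-subunit ribosomal RNA and lie inside the chaperone gene HSPA8, gave the same pair of signs. SNORD14C differed by -0.45 and 0.30, SNORD14E by -0.29 and 0.21, and HSPA8 by 0.04 and 0.08. SNORD95, inside the ribosome-associated scaffold gene RACK1, differed by -0.24 and -0.16.

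At 1.5-fold, 3 and 4 of the 115 C/D box genes were higher in the CD133 and ALDH sorts, although 21 and 43 lay above 0. SNORD46 was 1.5-fold higher in ALDH-positive cells (7.48 against 6.89; 0.59, or 0.56 once all differences are centred, which is short of 1.5-fold) and differed by -0.10 in the CD133 sort. SNORD94, in PTCD3, stood at 6.53 and 6.21 in the ALDH sort and differed by -0.14 in the CD133 sort. SNORD105 was dim, with levels of 3.94, 3.36, 4.03 and 3.30, both positive arrays above both negative ones.

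**Figure D2:**
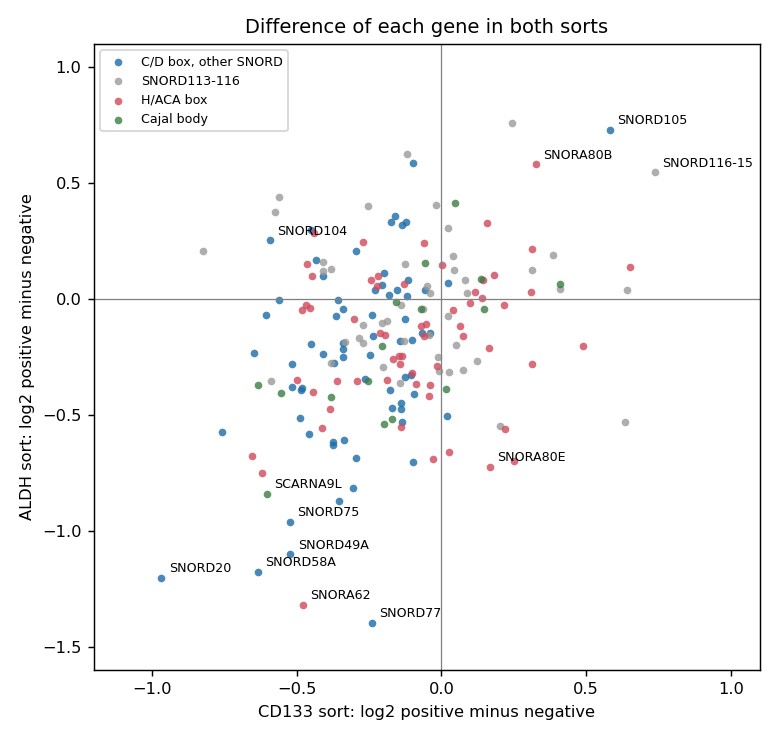
Each point is 1 gene, placed by its log2 difference between positive and negative fraction in the CD133 sort (horizontal) and in the ALDH sort (vertical), coloured by class, with 12 genes named. The lower left corner, lower in both sorts, holds 104 of the 192 genes and the upper right corner 26.

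The sorts share no array, and across the 192 genes their differences had a Pearson's r of 0.32 and a Spearman's rho of 0.26, against -0.02 and 0.08 across all 18377 genes. Genes are not independent replicates, and many of these genes share a host, so the values describe these arrays only.

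Genes in the same host were then described together. The 7 measured genes in GAS5, a non-coding RNA known to build up in growth arrest, all lay lower in CD133-positive cells, at a median of -0.41 and a range from -0.52 to -0.20. In the ALDH sort they spread from -1.40 to 0.10. SNORD75 had levels of 7.06, 7.58, 6.42 and 7.38 and was the second most different of them in the ALDH sort (-0.96). SNORD77 was 2.63-fold lower in ALDH-positive cells, but at dim levels of 1.86 and 3.26. SNORD78, by contrast, stood at 7.44 and 7.37 in the ALDH sort, and SNORD44 at 7.12 and 7.02.

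The same 7 genes also set the sorts apart from each other. In 5 of them both ALDH-sort arrays lay below both CD133-sort arrays, by 1.5-fold or more in the means; 22.5% of all genes had such an order without overlap, and 2.58% were 1.5-fold lower in the mean. SNORD44 was at 7.97 and 8.38 on the CD133-sort arrays and at 7.12 and 7.02 on the ALDH-sort arrays, a gap of 2.14-fold between the means. SNORD78 had a gap of 1.91-fold, larger than its difference within either sort. SNORD74, in the same host, did not share it, with 7.36 and 7.84 against 7.49 and 8.01. This pattern was noticed in the values and is given as a description.

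The 3 genes in NCL were lower in the positive cells of both sorts. SNORD20 is given above, SNORD82 differed by -0.49 and -0.39, and SNORA75 by -0.38 and -0.48, whereas NCL itself, which encodes a major nucleolar protein, differed by -0.07 and 0.01. The 3 genes in RABGGTB, which encodes a subunit of a prenyltransferase, were also lower in both, between -0.36 and -0.10 in the CD133 sort and between -0.70 and -0.07 in the ALDH sort. Here the host was lower too, at -0.55 and -0.23.

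Among hosts encoding ribosomal proteins, the 4 genes in RPL13A (SNORD32A, SNORD33, SNORD34 and SNORD35A) were lower in both sorts by little, with medians of -0.29 and -0.17. SNORD33 had levels of 10.27, 10.61, 10.76 and 10.95. The 3 genes in RPL23A were lower in both sorts, with medians of -0.30 and -0.47, and its largest difference was that of SNORD4B in the ALDH sort (-0.69). RPL23A itself differed by 0.10 and -0.36.

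The 3 genes in RPL3 were lower in CD133-positive cells (-0.17 to -0.12) and higher in ALDH-positive cells (0.08 to 0.36), as was RPL3 (-0.13 and 0.17). SNORD83A, one of the 3, stood at 5.53, 5.69, 5.96 and 5.60. SNORD43, another, stood at 6.99, 7.17, 7.43 and 7.10.

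**Figure D3:**
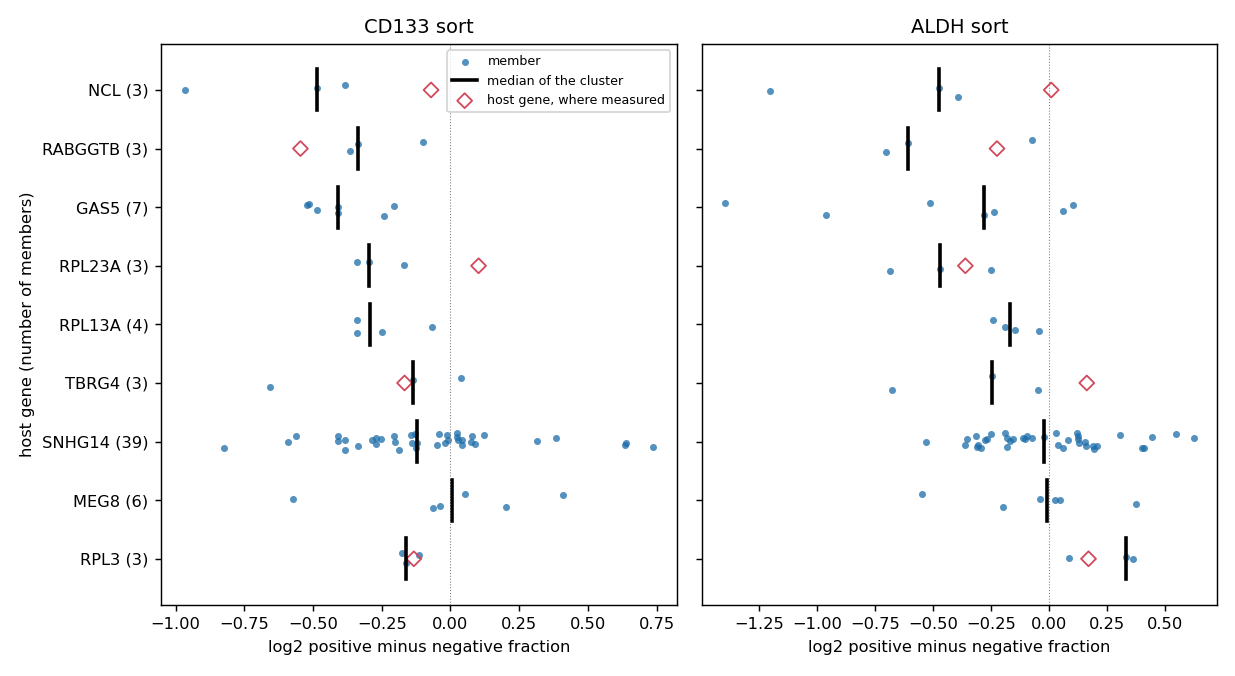
Points are single genes grouped by host, for the hosts with 3 or more measured genes that are reported here (vertical axis, number of genes in brackets), with the log2 difference between positive and negative fraction on the horizontal axis for the CD133 sort (left) and the ALDH sort (right). Black bars are medians over the genes of a host and open diamonds the host's own value where a probe names it alone; the 3 genes in RPL3 lie below 0 in the CD133 sort and above 0 in the ALDH sort.

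Host genes with a probe of their own were at hand for 91 of the 192 genes, 70 hosts in all. Of the 70 hosts, 47 were lower in CD133-positive cells and 47, counted separately, in ALDH-positive cells, with medians of -0.07 and -0.12. Lower in these cells were 50.9% and 46.1% of all genes, and 57.3% and 52.4% of genes at or above the median level. The 91 genes had medians of -0.14 and -0.18 and lay below their own host in 57 cases in the CD133 sort and 50 cases in the other. GAS5 and RPL13A are among the hosts without such a probe. By kind of host, and leaving SNORD113 to SNORD116 aside, 33 genes in ribosomal protein hosts had medians of -0.20 and -0.21, with 32 and 22 of them lower. The 31 genes in non-coding hosts had medians of -0.24 and -0.21, with 27 and 23 lower, and the 78 in other protein-coding hosts -0.13 and -0.16, with 53 and 55 lower.

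Among the H/ACA box genes SNORA62 (E2), inside the laminin receptor and ribosomal protein gene RPSA, was lowest in the ALDH sort. Its levels were 6.38, 6.86, 6.30 and 7.61. The ALDH-negative array stood above the other 3, and the difference in that sort was 2.49-fold. SNORA6, the other measured gene in RPSA, named after its values were seen, differed by -0.17 and -0.26.

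SNORA5A, in TBRG4, was lower by nearly the same amount in both sorts. Its levels were 5.18, 5.83, 4.96 and 5.64, so both positive arrays lay below both negative arrays. SNORA5B, in the same host and below the median of all values, differed by 0.04 and -0.05, and TBRG4 by -0.17 and 0.16. SNORA2B gave -0.62 and -0.75, at levels from 3.87 to 5.16.

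Other H/ACA genes lay higher in a positive fraction. SNORA80B, in the ornithine decarboxylase gene ODC1, had levels of 6.42, 6.09, 6.77 and 6.19. It was the H/ACA gene with the highest difference in the ALDH sort (0.58), just short of 1.5-fold. SNORA37 (0.31 and 0.22) and SNORA52 (0.31 and 0.03) were higher as well, and SNORA51 went both ways (0.22 and -0.56). Named after their values were seen, the dim SNORA70E (0.65 and 0.14) was the 1 H/ACA gene at least 1.5-fold higher in a sort, and SNORA70B, dim as well, gave 0.49 and -0.20.

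SNORA80E, in KHDC4, spread widest over the arrays among named genes at or above the median level. It was at 6.96 and 6.80 on the CD133-sort arrays but at 8.18 and 8.90 on the ALDH-sort arrays. The means of the sorts were 3.17-fold apart, while the differences within them were 0.17 and -0.72. SCARNA4, in the same host, stood between 3.11 and 3.67 on all 4 arrays, and KHDC4 itself differed by -0.14 and -0.24. SNORA3A, in RPL27A and named after its values were seen, was likewise higher on both ALDH-sort arrays (8.18 and 8.53) than on both CD133-sort arrays (7.34 and 7.53). Over all 192 genes, 46 were lower and 43 higher without overlap on the ALDH-sort arrays, beside 22.5% and 18.9% of all genes. At 1.5-fold in the means 20 were lower and 6 higher, beside 2.58% and 1.5% of all genes. Any hybridisation batch between the sorts cannot be told apart from the sort itself.

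**Figure D4:**
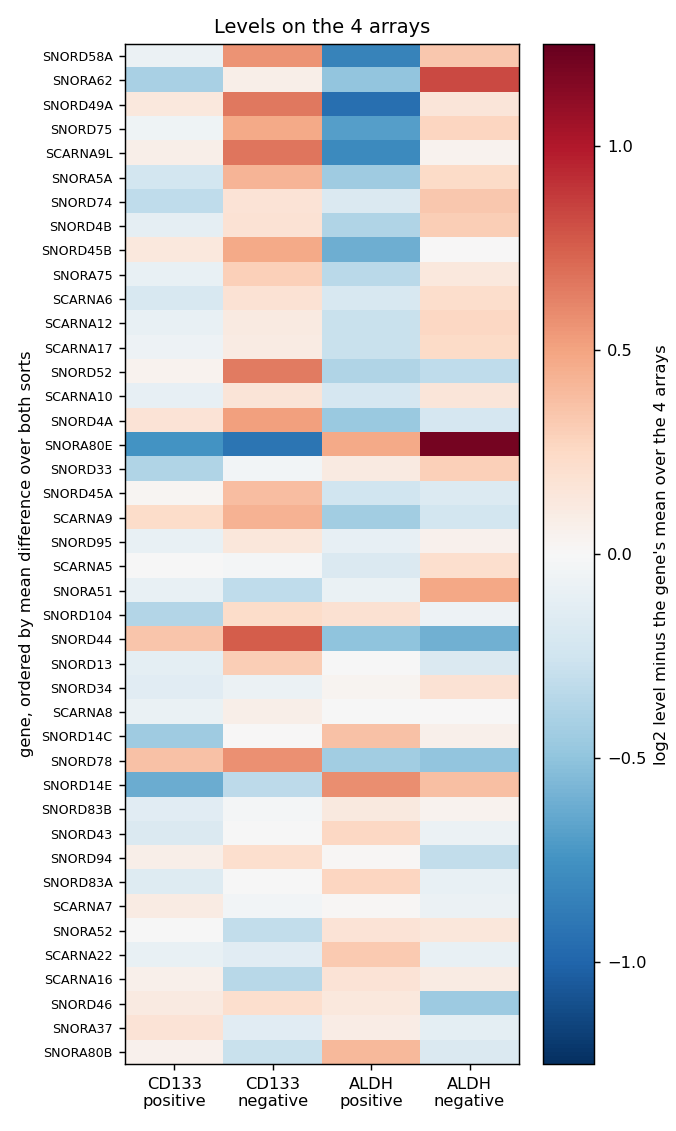
Rows are the 42 named genes whose mean level reached the median of all values, ordered by their mean difference over both sorts, and columns are the 4 arrays. Colour gives the log2 level minus the gene's own mean over the 4 arrays, from -0.94 to 1.19. In the top rows SNORD58A and SNORA62 are blue in the positive and red in the negative fractions. SNORD49A and SCARNA9L, also near the top, lie above their own mean in CD133-positive cells, because the gap between the sorts enters the colour. SNORA80E, SNORD44, SNORD78 and SNORD14E differ more between sorts than within them.

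Small Cajal body RNAs were described one by one, as only 16 were measured. SCARNA17, whose targets include U12 and U4 small nuclear RNA, lies in SNHG22. It had levels of 11, 11.17, 10.79 and 11.30 and differed by -0.17 and -0.52. Its second probe gave -0.14 and -0.80. SCARNA12 (U89), a guide for U5, had levels of 8.53, 8.73, 8.34 and 8.88 and differed by -0.20 and -0.54. Its host PHB2, which encodes prohibitin 2, differed by nearly the same, -0.19 and -0.52.

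SCARNA9, a guide for U2, had levels of 9.06, 9.27, 8.40 and 8.60, a difference of -0.20 in each sort. Its second probe gave -0.36 and -0.56. SCARNA9L, a near copy of it on another chromosome, had 6.89, 7.50, 6.03 and 6.87, which is 1.52-fold and 1.79-fold lower in the positive cells. Its other probe gave -0.29 and -0.42, short of 1.5-fold, and loess left -0.53 in the CD133 sort. Its size thus depends on the probe, and signal shared with SCARNA9 makes it uncertain. Both were at their lowest in ALDH-positive cells.

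The remaining guides for U5, SCARNA10 (U85), SCARNA5 (U87) and SCARNA6 (U88), were close to each other in the ALDH sort, at -0.36, -0.39 and -0.42. In the CD133 sort they were at -0.26, 0.02 and -0.38. SCARNA5 and SCARNA6 share the host ATG16L1, an autophagy gene that differed by -0.04 and 0.15. SCARNA7 (U90), a guide for U1, was slightly higher in both sorts (0.14 and 0.09), with levels of 9.48, 9.34, 9.39 and 9.31.

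SCARNA16, also a guide for U1, was higher by 0.41 in CD133-positive cells and by 0.06 in ALDH-positive cells. SCARNA22, in the histone methyltransferase gene NSD2, differed by 0.05 and 0.42, and NSD2 by -0.12 and 0.38. SCARNA8 (-0.16 and -0.01) was close to level. SCARNA1 (-0.63 and -0.37), SCARNA4 (-0.56 and -0.40), SCARNA11 (-0.07 and -0.05), SCARNA14 (0.15 and -0.04) and SCARNA23 (-0.06 and 0.15) lay below the median of all values in their mean.

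SNORD113 to SNORD116 are multicopy C/D box families from imprinted regions, SNORD116 being the one tied to Prader-Willi syndrome, and are known for expression in brain. Of the 46 copies, 6 lay in MEG8 and 39 in SNHG14, with SNORD116-6 assigned to a smaller gene inside SNHG14. None reached the median of all values in its mean; their means ran from 1.07 to 3.52, and the highest single value was 4.06, that of SNORD116-15 in CD133-positive cells. Their medians were -0.05 and -0.00, with 28 and 23 lower. SNORD116-15 stood at 4.06, 3.32, 3.62 and 3.08, and SNORD115-14 between 0.78 and 1.37. In MEG8 the lowest and the highest over both sorts were SNORD114-6 (0.20 and -0.55) and SNORD114-26 (0.41 and 0.04). Copies are near identical and can share signal, so single copies are uncertain.

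The transcripts of proteins that bind and assemble these RNAs lay mostly lower in the CD133 sort but not in the ALDH sort. Of the 8 core protein genes 6 were measured alone, 5 and 2 of them lower in the positive cells. Of all genes 50.9% and 46.1% were lower, and of those at or above the median level 57.3% and 52.4%. NOP10, an H/ACA core gene, had the largest core difference in the CD133 sort and was higher there (0.51 and 0.12). Dyskerin DKC1 differed by -0.29 and 0.71, the only one at 1.5-fold. Fibrillarin FBL differed by -0.08 and 0.20, and NOP58, the other C/D core protein measured, by -0.37 and -0.05. Of 23 assembly, cap and Cajal body factors 22 were measured, with medians of -0.12 and 0.01, 17 and 11 lower. NAF1, an assembly factor of H/ACA particles, was lower in ALDH-positive cells (-0.92) at dim levels of 3.47 and 4.39, and IMP3, a protein of the U3 particle, was higher (0.68). The coilin gene COIL differed by -0.25 and 0.23.

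Other small nuclear RNAs were set beside them. Of 19 listed, 12 had a probe of their own, with medians of -0.18 and -0.22. Of these 12, 8 and 9 were lower, 7 lower in both sorts and 2 higher in both. TERC, the telomerase RNA, which carries an H/ACA domain, differed by -0.15 and -0.35. The RNA components of the related ribonucleases RMRP (-0.29 and -0.36) and RPPH1 (-0.22 and -0.46) were lower in both sorts. RNU2-1, with levels of 9.68 to 10.19, was higher in both (0.16 and 0.50). RNU5A-1 (0.07 and 0.86, at dim levels of 3.74 to 4.73) and RNU12 (-0.12 and 0.62) were over 1.5-fold higher in ALDH-positive cells. The 173 microRNA genes, another class of small RNA genes on these arrays, had medians of 0.05 and 0.13, with 30 lower in both sorts and 67 higher in both; only 30 of them reached the median of all values in their mean. U3 (SNORD3A), the SNORA73A copy of U17, SNORD22 and SNORD47 share their probes with other symbols, and U8 (SNORD118), SNORA73B and SNORD48 were not analysed here.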

How the data were processed

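Biotin-labelled RNA of 4 sorted Huh7 fractions was hybridised to 1 Affymetrix array each, as the labels' protocols state. The authors deposited expression on a log2 scale after RMA, a method named in the submitters' processing notes. The scale follows from the range (0.556 to 13.5). The software version, the build and any later centring are not given in the sources used here. RMA draws the arrays towards one distribution. Of 28869 probes, 19310 carried 1 symbol and gave 18377 genes, each by its probe with the highest mean. All 192 genes matched RefSeq by gene identifier. The host was the smallest gene containing a gene, read without strand. Differences were taken per sort with no filter on low values. Marker status over both sorts was fitted with limma 3.58.1 (lmFit, eBayes, sort as a block) in R 4.3.3, checked on simulated data; its p-values measure only the spread between these arrays. Python 3.11.15 and matplotlib 3.10.9 served for the rest.

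Named were, per sort, the 6 lowest and 6 highest genes whose mean reached the median of all values (4.98), the 6 lowest in both sorts, a fixed set including all SCARNA genes, the lowest and highest gene per host with 3 or more, and genes of the lists of proteins and other small RNAs at 1.5-fold. Some genes of these lists that are short of 1.5-fold are named as well. The genes and lists were chosen with earlier results of these data known. Alternatives covered centring, a second quantile normalization, loess (span 0.4), the mean over probes, filters on level, a 2-fold threshold and limma settings. The values of 1 further host are not reported here.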

Additional observations from a re-analysis of the deposited data

How the results depend on the processing

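Each summary was recomputed under every alternative, and a median counted as moved beyond 0.1 log2 units, a count beyond 1.5 times. Centring, a second quantile normalization, loess and the mean over probes moved none of the medians or counts that far. That limit is close in size to the medians, so smaller shifts matter too. After the second quantile normalization the C/D box median in the ALDH sort was -0.09, against -0.15 before. The C/D and H/ACA medians in the CD133 sort, -0.19 and -0.09 before, were then -0.16 and -0.12, and -0.15 and -0.11 after loess. Over genes at or above the median of all values, the C/D box median in the CD133 sort was -0.29, the 1.5-fold counts were 5 lower and 0 higher (CD133) and 10 lower and 1 higher (ALDH), and 59 of 94 genes were lower in both sorts (30.5% of all genes in that range). At or above the 75th percentile, 43 genes were left, few of them H/ACA or Cajal body genes. The H/ACA medians were then -0.32 (CD133) and -0.032 (ALDH). The Cajal body median in the ALDH sort was -0.52, the value of its middle gene SCARNA17. The 1.5-fold counts were 2 lower and 0 higher (CD133) and 4 lower and 1 higher (ALDH). Of the 43 genes, 27 were lower in both (32.6% of all genes). With values below the median raised to it, the medians of all 192 genes were 0 in both sorts, as were those of C/D box genes in both sorts, of H/ACA genes in both sorts and of Cajal body genes in the CD133 sort. The Cajal body median in the ALDH sort was then -0.0055. The 1.5-fold counts were 5 lower and 0 higher (CD133) and 10 lower and 1 higher (ALDH), and 57 genes (29.7%) were lower in both sorts, beside 18.7% of all genes. Without SNORD113 to SNORD116, 1 gene (CD133) and 2 genes (ALDH) were higher at 1.5-fold. At 2-fold the counts were 0 lower and 0 higher (CD133) and 5 lower and 0 higher (ALDH).

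The limma fit called 0 genes under every setting, including those that left out 1 array each (lowest and highest count 0), and 33 at an unadjusted p under 0.05. The smallest adjusted p among the 192 genes ran from 0.259 to 1 over the settings. Leaving out the ALDH-positive array, in the fit with no sort block, left 3 genes at an unadjusted p under 0.05, against 20 with all arrays and 18 to 28 without another array. Of the 22 differences of named genes at 1.5-fold, none changed sign under any alternative run; 18 of 112 such recalculations fell short of 1.5-fold. The labels give no replicate numbers, so the pairing in the limma fit is that of the fractions within a sort.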

Other observations

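Another 76 probes carried several symbols of which 1 or more named a snoRNA or scaRNA, and were left out above because the gene cannot be told. Of these, 23 listed only such RNAs and had median log2 differences, positive minus negative fraction, of -0.24 (CD133) and -0.13 (ALDH). The other 53 listed a snoRNA or scaRNA with its host or another gene, with medians of -0.25 and -0.18. Over all 76, 62 were lower in CD133-positive cells, 55 lower in ALDH-positive cells and 46 lower in both. Of all genes with a probe of 1 symbol, 50.9%, 46.1% and 25.3% were, with medians of -0.01 and 0.03. Some of the 76 hold identical values on every array and were counted each time. Several of these probes read the same transcripts as probes already used, so they are no independent measurement.

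The pair of probes for SNORA10 held the same values on all 4 arrays (7.06, 7.12, 7.60 and 7.36, ordered as above), and so counts as 1 measurement. Of the 192 genes, 5 had more than 1 probe.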
